A study of Mus musculus with 46 samples.

Results

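Cathepsins are the proteases of the lysosome, the acidic compartment in which cells break down protein that they take up or recycle. The members described here are 9 genes chosen by symbol: the cysteine proteases Ctsb, Ctsc, Ctsf, Ctsh, Ctsl, Ctss and Ctsz, the aspartic protease Ctsd and the serine carboxypeptidase Ctsa. All 9 were found in each of the 7 count tables, among 21812 genes in all. In GENCODE M21 (GRCm38) they are protein-coding genes at separate places: Ctsl on chr13:64359337-64370890, Ctsc on chr7:88278085-88310888, Ctsh on chr9:90054152-90076089, Ctsb on chr14:63122462-63145923 and Ctsa on chr2:164832873-164841032. Ctsz lies on chr2:174427493-174439039, Ctsd on chr7:142375911-142388038, Ctsf on chr19:4855130-4860918 and Ctss on chr3:95526786-95556403.

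Cathepsins are made as inactive precursors, carried to the lysosome by sorting receptors that bind mannose 6-phosphate, and activated by cleavage at acidic pH, which the V-ATPase proton pump maintains. Cystatins and some serpins inhibit the cysteine members. Primitive endoderm (PrE) and the visceral endoderm (VE) that it forms are strongly endocytic: they take up maternal protein through receptors such as cubilin and megalin and degrade it in lysosomes to feed the embryo. The transcription factors Tfeb, Tfe3, Mitf and Tfec bind E-box sequences near many lysosomal genes.

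The series measured RNA in 46 libraries of mouse extended pluripotent stem cells (EPSC, called EPS in some tables) and their derivatives, in 19 groups. It set out to describe transcript levels and RNA stability in EPSCs and the states they form, and its title names m6A, a methyl mark on mRNA. EPSC had 2 libraries. PrE-E (CD140+) and EPI-E (CD140-) were sorted from EPSCs kept in medium that induces PrE, with 2 libraries each. Embryoid VE and EPI, with 6 libraries each, came from embryoids of day 5 built from EPSCs and GBL-1 and were parted with pronase E. EPS and PrE-induced cells (PrEdiff) were treated with actinomycin D, which blocks transcription, for 0, 1, 2 and 3 h, with 2 libraries at each time. PrEdiff cells also formed 3 pairs of groups with 2 libraries each: WT and cKO of Virma, WT and cKO of Mettl3, and control (siNC) and Igf2bp3 (siIgf2bp3) small interfering RNA. Virma and Mettl3 are parts of the enzyme complex that writes m6A, and Igf2bp3 is a protein that binds m6A-marked mRNA. The labels name neither the strain and Cre driver of the cKO cells nor separate cultures for replicate libraries. The p-values of group comparisons thus measure the spread between these libraries, which may be technical. Those of the actinomycin D slopes also take in how far the libraries of each state lie from a straight line over time.

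Libraries held 6854433 to 22280769 counts. PrE markers took 3.217% to 3.218% of counts in PrE-E and 0.00683% to 0.00711% in EPI-E, with Sox17 at 0 in EPI-E. These fractions were sorted on CD140, and Pdgfra, which encodes a CD140 protein, is among the PrE markers. The sort thus set part of this difference in advance. VE markers took 0.278% to 0.304% in embryoid VE and 0.00266% to 0.00546% in embryoid EPI. VE markers took 0.0116% to 0.0130% in PrE-E, with Afp at 0. Virma itself was lower in Virma cKO than WT by -0.82 ± 0.12 (log2 ± SE, adjusted p = 1.12e-06). Mettl3 differed by -0.02 ± 0.11 in the libraries labelled Mettl3 cKO (adjusted p = 0.978), and Igf2bp3 by 0.11 ± 0.11 in the libraries labelled siIgf2bp3 (adjusted p = 0.577), so neither label was borne out by the counts of its target. Whether those counts cover the deleted part of Mettl3 is not given in the sources used here. Replicates of the actinomycin D table differed little more than counting error allows (a chi-square of 1.19 to 1.30 per degree of freedom, against up to 20.0 in the other tables). The 3 h libraries of EPS stood apart from the earlier times for several members, and results that rest on them are given with and without them.

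Because the E-box CACGTG is the core of the sites that Tfeb and its relatives bind, the RefSeq promoter windows (GRCm38.p6, 250 bases before to 50 bases after each gene's start) were searched for it on both strands. Of the 9 members 7 matched a window, with 8 windows between them; Ctsb and Ctsh did not match. CACGTG was found in windows of 4 members (Ctsa, Ctsd, Ctsf and Ctsl), against 8.09% of all genes and 7.15% of all windows of this length. The longer TCACGTGA, which contains the shorter sequence, was found for 2 members (Ctsa and Ctsd), against 1.12% of genes and 0.974% of windows. Both sequences read the same on either strand. A match is a description of the letters and not of a bound site. The matches are printed 5′ to 3′ on the gene's strand, with CACGTG in capitals, to show how the letters around a shared core differ between members.
Ctsa, chr2:164833749-164833778, plus strand: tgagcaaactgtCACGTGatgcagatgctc
Ctsa, chr2:164833766-164833795, plus strand: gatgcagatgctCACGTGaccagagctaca
Ctsd, chr7:142388055-142388077, minus strand: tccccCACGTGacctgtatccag
Ctsd, chr7:142387908-142387937, minus strand: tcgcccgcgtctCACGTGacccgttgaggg
Ctsf, chr19:4855074-4855103, plus strand: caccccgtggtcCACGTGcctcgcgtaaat
Ctsl, chr13:64370739-64370768, minus strand: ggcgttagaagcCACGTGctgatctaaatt

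The Ctsa pair lay at -12 and 5 bases from a start and shared letters, both within TCACGTGA. That start was inside the GENCODE span of Ctsa, and the Ctsa window at the 5′ end of the span held no CACGTG. The Ctsd pair lay at -245 and -98, and the one at -98 was within TCACGTGA. The Ctsf and Ctsl matches lay at -79 and -236. These distances are from RefSeq starts, and the Ctsd match at -98 and the Ctsl match lay inside the GENCODE spans of their genes. Windows of Ctsc, Ctss and Ctsz held no CACGTG. The 7 matched members thus fall into a set with the letters and a set without, and both sets hold members with high and with low levels in endoderm, as described next.

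Levels are given as CPM, counts scaled to library size with TMM factors within each table. Tables were scaled separately, so an order of levels across tables also carries differences between tables. Embryoid VE had the highest mean CPM of all 19 groups for 7 members (Ctsa, Ctsb, Ctsc, Ctsd, Ctsh, Ctsl and Ctsz), above every library of the next group. EPI-E had the lowest mean for the same 7, below every library of the next group. The other two members did not follow this order. Ctsf, a little-studied cysteine cathepsin, was highest in Mettl3 cKO (8.98 ± 0.34 CPM, SD, n = 2) and lowest in Virma WT (0.549 ± 0.209, n = 2), and in 16 of its 18 neighbouring pairs of groups the libraries overlapped. Ctss, the cathepsin of antigen-presenting cells, was highest in EPS after 3 h of actinomycin D (3.79 ± 0.77, n = 2).

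**Figure D1:**
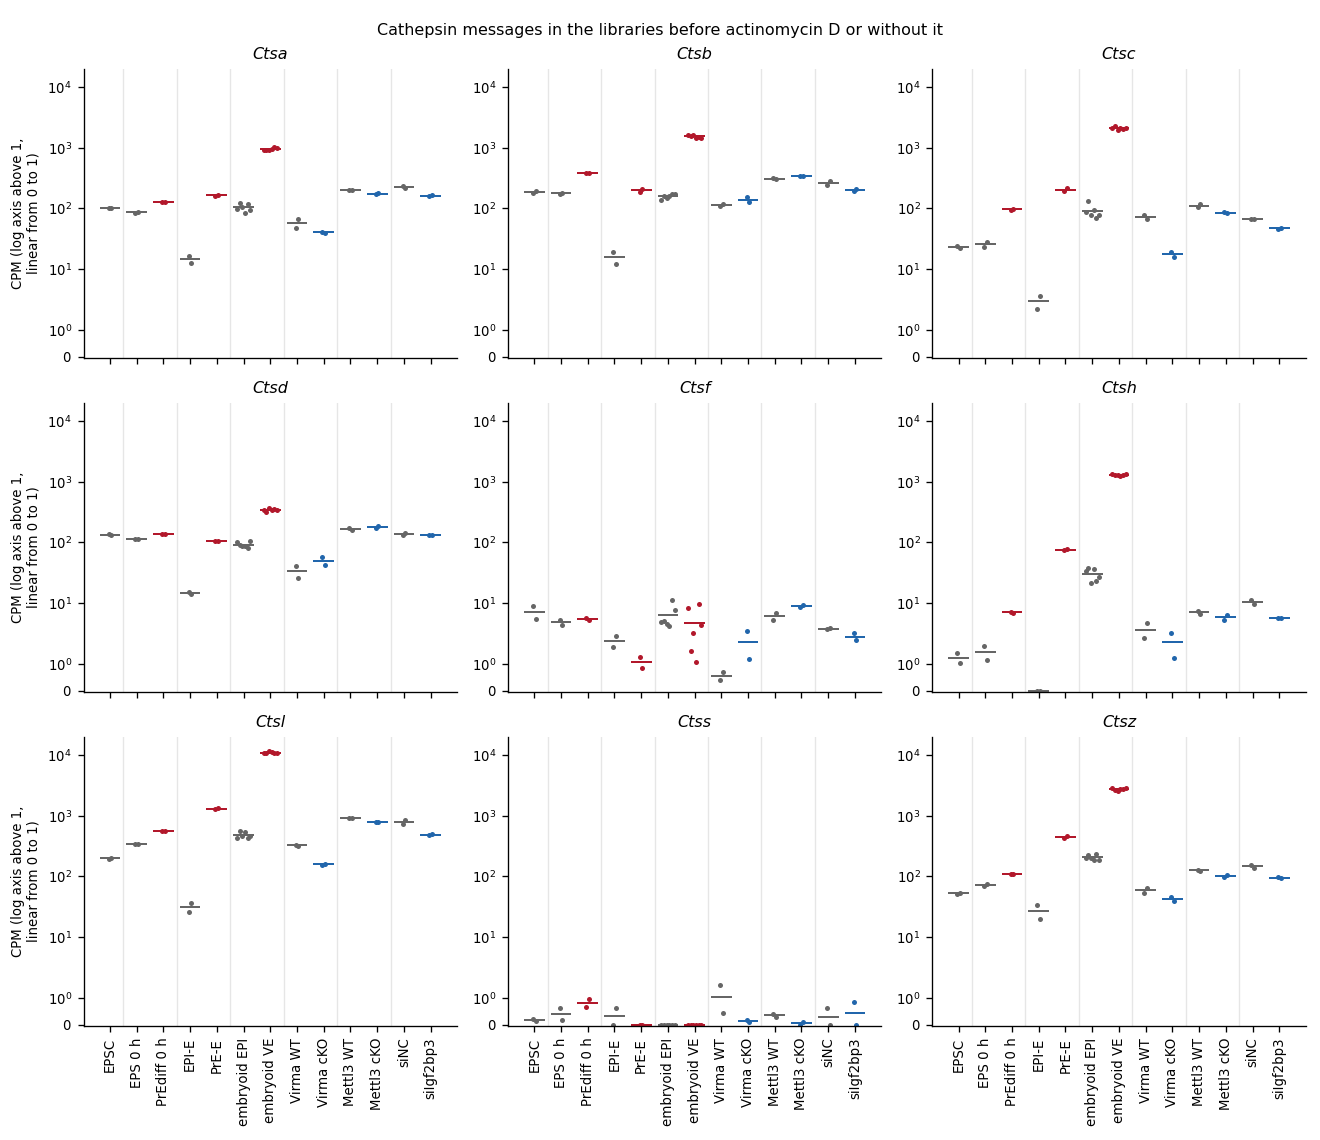
CPM of each member (vertical axis, logarithmic above 1 and linear from 0 to 1) in the libraries of 13 groups without actinomycin D. Each point is a library and each bar a group mean. PrEdiff 0 h, PrE-E and embryoid VE are red, and the cKO and siIgf2bp3 groups are blue. The others are grey, among them the PrE-induced controls Virma WT, Mettl3 WT and siNC. Ctsa, Ctsb, Ctsc, Ctsd, Ctsh, Ctsl and Ctsz are highest in embryoid VE and lowest in EPI-E, while Ctsf and Ctss show no such order.

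Ctsl, an endopeptidase of broad range, was the most abundant member per length of transcript in every group named here. In embryoid VE, Ctsl reached 5566 CPM per kb, followed by Ctsz, a carboxypeptidase, at 1903, the dipeptidyl peptidase Ctsc at 845 and the aminopeptidase Ctsh at 803. Ctsa (375), Ctsb (325), Ctsd (162) and Ctsf (2.38) followed on the same scale. In PrE-E the order per kb was Ctsl (664), Ctsz (309), Ctsc (81.5), Ctsa (65.0), Ctsd (48.7), Ctsh (46.9), Ctsb (41.6) and Ctsf (0.543). In undifferentiated EPSC the order per kb differed, with Ctsd (63.4), Ctsa (40.4) and Ctsb (39.0) after Ctsl (100.7), and with Ctsz at 36.8 and Ctsc at 9.19. Across these separately scaled tables, Ctsd was lower in PrE-E (48.7) than in EPSC (63.4), and Ctsb lay near its EPSC level (41.6 against 39.0). The PrE-E comparison below is against EPI-E, which had the lowest means, and not against EPSC. The 9 members together took 1.90% to 1.98% of all counts in embryoid VE, 0.235% to 0.250% in PrE-E, 0.112% to 0.139% in embryoid EPI, 0.0695% to 0.0713% in EPSC and 0.0106% to 0.0118% in EPI-E.

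The comparison of PrE-E with EPI-E asks which messages differ between CD140+ and CD140- cells of PrE-induced cultures. Of 8 members tested, 7 were higher in PrE-E, where 28.3% of all 12423 genes tested were higher and 57.7% were called in either direction. The members' median log2 change was 3.85, against -0.03 for all genes. Both the 7 and this median include Ctsh, which had no counts in EPI-E and passed the filter on low counts only through PrE-E. Its call was set by that filter and adds nothing to the comparison with all genes. In bulk samples such as these, more cells of a type and more RNA per cell cannot be told apart.

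Ctsl stood at 1277 and 1341 CPM in the PrE-E libraries and at 26.2 and 36.8 in EPI-E. These groups did not overlap, and Ctsl was 41.7-fold higher in PrE-E (log2 5.38 ± 0.12, SE; adjusted p = 8.52e-12). Ctsc, which activates serine proteases of immune cells, stood at 193 and 213 CPM in PrE-E against 2.19 and 3.65 in EPI-E. Its difference, 70.3-fold (6.14 ± 0.19, adjusted p = 2.28e-11), was the largest with counts in all 4 libraries. Ctsh had 955 and 1210 counts in PrE-E (73.7 and 78.0 CPM) and none in either EPI-E library, so that it passed the filter on low counts only through PrE-E. Set against 3 counts in each EPI-E library, Ctsh was at least 355-fold higher in PrE-E.

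The remaining members that rose were also apart in all libraries. Ctsz stood at 426 and 464 CPM against 34.3 and 19.6 (log2 4.04 ± 0.18, adjusted p = 3.93e-09). Ctsb stood at 186 and 208 against 18.8 and 12.3 (3.66 ± 0.17, adjusted p = 1.26e-09). Ctsa, which also protects a sialidase and a galactosidase in a complex, stood at 161 and 169 against 16.3 and 12.6 (3.50 ± 0.15, adjusted p = 4.72e-10). Ctsd, the main aspartic protease of the lysosome, stood at 104 and 103 against 15.1 and 14.1 (2.82 ± 0.15, adjusted p = 4.18e-09). Ctsd shares 808 exonic bases with Gm49369 on the same strand, so the counts of the pair could be split between them by the authors' counting. Ctsf went the other way without passing the test, at 1.31 and 0.838 CPM against 1.92 and 2.89 (-1.16 ± 0.95, adjusted p = 0.321). Ctss had no counts in PrE-E and 0 and 8 counts in EPI-E, and was not tested.

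The rest of the lysosomal machinery was described with lists of genes by role. The endocytic receptor list shares genes with the cell type markers, among them Dab2 with the PrE markers and Amn with the VE markers. All 15 V-ATPase subunits rose in PrE-E, among them Atp6v0a1 (log2 4.06) and Atp6v1a (2.62). Of 31 tested hydrolases and activators 25 rose, among them the sialidase Neu1 (4.88) and the hexosaminidase subunit Hexa (4.47). Of 5 other lysosomal peptidases 4 rose, with legumain, Lgmn, which cleaves cathepsin precursors, at 5.32 and Tpp1 at 3.12. Among lysosomal membrane proteins 11 of 14 rose, with Cd63 at 4.15 and Lamp1 at 3.10, and 1 fell. Of 11 genes for sorting to lysosomes 9 rose, with the mannose 6-phosphate receptor Igf2r at 1.95, and 1 fell. The 3 tested inhibitors rose together with the proteases: cystatin C, Cst3, by 4.17, Cstb by 2.64 and Serpinb6a by 2.03. Of 6 endocytic receptor genes 5 rose, with cubilin, Cubn, at 10.49, the adaptor Dab2 at 8.67 and megalin, Lrp2, at 4.64. Tfec, Tfeb (2.86) and Mitf (2.35) were the 3 that rose among 5 tested lysosomal transcription factors. Tfec had the lowest adjusted p of these (12.02 ± 0.64, adjusted p = 1.43e-08). Its EPI-E counts are not given here, and a fitted change of this size may rest on few or no counts there. With library totals 1 of the 5 also fell. Feeder fibroblast markers took 0.0342% to 0.0354% of counts in PrE-E and 0.0176% to 0.0181% in EPI-E, with 4 of 10 tested higher, and their part in these results was not tested.

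**Figure D2:**
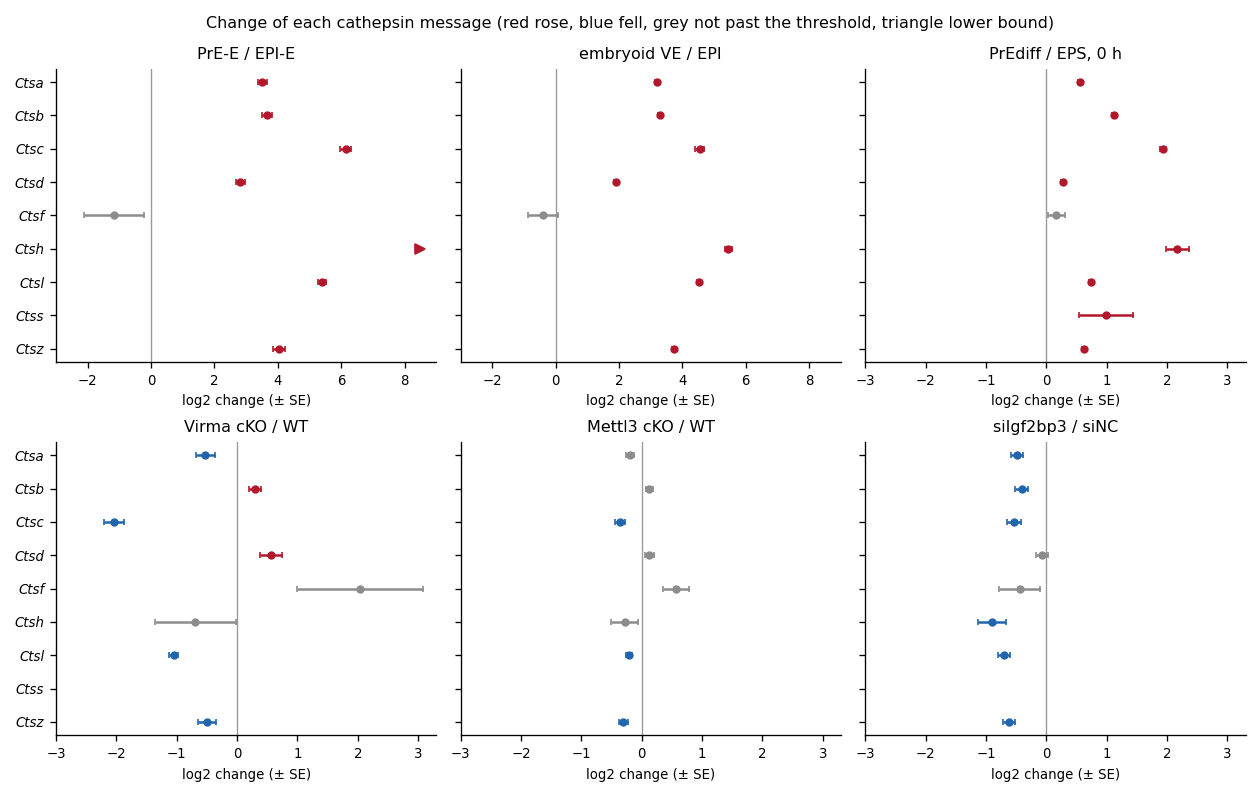
log2 change of each member with its SE (horizontal axis) in 6 comparisons, red where the member rose, blue where it fell and grey where it did not pass the threshold; the triangle is the lower bound for Ctsh and members without a mark were not tested. Ctsa, Ctsb, Ctsc, Ctsd, Ctsh, Ctsl and Ctsz lie to the right of 0 in all 3 endoderm comparisons. In the perturbations Ctsa, Ctsc, Ctsh, Ctsl and Ctsz lie to the left in all 3, and Ctsc, Ctsl and Ctsz passed the threshold in each.

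Embryoid VE against EPI compares the endoderm layer with the epiblast part of one structure. The same 7 members were higher in VE, of 8 tested, where 34.5% of 11254 genes tested were higher and 72.5% were called in either direction. Their median log2 change was 3.51, against -0.05 for all genes. With ribosomal protein genes as the scale, the median of all genes moved to 0.27 and that of the members to 3.83, and the count stayed at 7.

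Ctsl ran from 10700 to 11512 CPM in the 6 VE libraries, with a median of 10885, and from 430 to 564 in the 6 EPI libraries, with a median of 465. The layers were far apart, and Ctsl was 22.7-fold higher in VE (4.51 ± 0.06, adjusted p = 8.74e-22). Ctsh ran from 1267 to 1347 (median 1292) in VE and from 21.6 to 38.2 (median 30.2) in EPI. This was the largest ratio of the members, 43.7-fold (5.45 ± 0.11, adjusted p = 5.04e-19). Ctsc ran from 1979 to 2245 (median 2117) in VE and from 70.7 to 135 (median 82.3) in EPI, with a difference of 4.54 ± 0.13 (adjusted p = 1.40e-13). The Ctsc value of 135 belonged to 1 EPI library that stood above the other 5, and it was still far below every VE library.

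Ctsz ran from 2598 to 2856 CPM (median 2741) in VE and from 183 to 236 (median 201) in EPI (3.73 ± 0.06, adjusted p = 7.30e-22). Ctsb ran from 1457 to 1625 (median 1551) in VE and from 139 to 172 (median 160) in EPI (3.28 ± 0.05, adjusted p = 1.58e-21). Ctsa ran from 904 to 1012 (median 943) in VE and from 84.8 to 123 (median 101) in EPI (3.20 ± 0.07, adjusted p = 3.32e-19). Ctsd had the smallest rise of the 7, from a median of 88.4 (82.0 to 105) in EPI to 345 (317 to 370) in VE (1.91 ± 0.07, adjusted p = 3.66e-16). Ctsf overlapped between the layers, at 1.07 to 9.71 (median 3.77) in VE and 4.26 to 11.1 (median 5.03) in EPI (-0.41 ± 0.48, adjusted p = 0.454). Ctss was at 0 counts in all 12 embryoid libraries. Ctsa overlaps Pltp by 495 exonic bases and Neurl2 by 324, and Ctsb overlaps Fdft1 by 774, each on the opposite strand. Without a stated strand setting, reads of such pairs cannot be told apart. Ctsl overlaps Gm47123 by 1742 exonic bases on the opposite strand and the pseudogene Gm49230 by 395 on the same strand. Neither of these is among the counted genes, and their part in the Ctsl counts was not tested.

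All 15 V-ATPase subunits also rose in VE (Atp6v0b by 3.00), as did all 6 endocytic receptor genes (Cubn by 5.33, Lrp2 by 5.14) and all 5 tested peptidases (Lgmn by 4.35). Hydrolases rose for 22 of 31 tested, with Neu1 at 3.66 and Hexa at 3.50, and fell for 2, of which none fell with ribosomal protein scaling. Cst3 rose by 2.98 and Cstb by 2.65. Among lysosomal membrane proteins 12 of 14 rose, with Cd63 at 3.78 and Lamp1 at 2.35, and Laptm4b fell by 3.76. Tfec rose by 4.74 and Tfeb by 2.09, while Tfe3 fell by 0.76. Ctsw, a cathepsin of cytotoxic lymphocytes, was the only 1 of 13 other cathepsin genes that passed the filter on low counts, and it fell by 2.05 (adjusted p = 0.0117).

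The sizes of the sorted and the embryoid contrast were compared in a fit on the 16 libraries of both. Of 8 members tested 4 were called with a smaller contrast in the embryoids, 3 of them (Ctsc, Ctsd and Ctsl) with counts in all 16 libraries, where 9.32% of 13835 genes had a lower contrast and 20.6% differed in either direction. Table and system coincide here, so they cannot be told apart. The difference, embryoid minus sorted, was -1.42 ± 0.32 for Ctsc (adjusted p = 0.00299), -0.73 ± 0.14 for Ctsd (adjusted p = 0.000584) and -0.70 ± 0.14 for Ctsl (adjusted p = 0.00145). Without EPI-E replicate 1 the Ctsc difference was -1.08 (adjusted p = 0.0938), and Ctsb (-0.55, adjusted p = 0.0145) and Ctsz (-0.60, adjusted p = 0.00728) passed instead. The fourth, Ctsh, rested on the absence of counts in EPI-E, so that its fitted difference of -7.21 depends on the prior count and shows no size. The differences for Ctsa (-0.13 ± 0.16) and Ctsf (0.93 ± 1.03) did not pass.

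PrEdiff against EPS at 0 h asks what changed in whole cultures during PrE induction. The differences were smaller than in the purified layers. All 9 members passed the low-count filter and 8 were higher in PrEdiff, where 37.6% of 14127 genes were higher and 80.5% were called in either direction. The median log2 change of the members was 0.74, against -0.05 for all genes. Library totals moved the median of all genes to 0.13.

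Ctsh stood at 1.99 and 1.14 CPM in EPS and 7.25 and 6.84 in PrEdiff, 4.50-fold higher (2.17 ± 0.18, adjusted p = 4.64e-23). Ctsc stood at 23.3 and 27.5 in EPS and 95.1 and 99.0 in PrEdiff, 3.81-fold higher (1.93 ± 0.05, adjusted p = 2.15e-126). Ctsb stood at 175 and 179 against 384 and 382 (1.12 ± 0.02, adjusted p = 2.96e-144). Replicates differed little and the states did not overlap for these 3 members. Ctsl stood at 341 and 338 in EPS and 560 and 571 in PrEdiff (0.74 ± 0.02, adjusted p = 1.90e-109). Ctsz stood at 68.2 and 74.6 against 111 and 110 (0.63 ± 0.04, adjusted p = 2.64e-46), and Ctsa at 84.1 and 87.5 against 125 and 126 (0.55 ± 0.03, adjusted p = 1.31e-42). Ctsd rose least, from 112 and 113 to 137 and 136 (0.28 ± 0.03, adjusted p = 2.34e-16). The order of these rises can be read beside the embryoid contrast, in which Ctsh also came first and Ctsd last. Between these ends the orders differed. In the embryoids Ctsc (4.54 ± 0.13) and Ctsl (4.51 ± 0.06) lay within their SE. Ctsb rose more than Ctsl here (1.12 against 0.74) but less in the embryoids (3.28 against 4.51).

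Ctss rose from 13 and 4 counts to 12 and 18 (0.99 ± 0.44, adjusted p = 0.0328), and its libraries overlapped. The Ctss call was lost with DESeq2 (adjusted p = 0.0929), without EPS 0 h replicate 2 (0.35, adjusted p = 0.511) and without PrEdiff 0 h replicate 2 (0.68, adjusted p = 0.273). Ctsf stood at 5.31 and 4.30 CPM against 5.60 and 5.17 (0.17 ± 0.15, adjusted p = 0.283), and passed only with library totals (0.35, adjusted p = 0.0230).

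All 6 endocytic receptor genes rose (Cubn by 5.95). Of 32 hydrolases and activators 26 rose (Gm2a by 2.41) and 2 fell, Manba (-2.33) and Acp2 (-0.23). V-ATPase subunits split, with 8 of 15 higher (Atp6v0a1 by 1.64) and 6 lower (Atp6v0c, -0.73). With library totals 11 were higher and 3 lower. Of 6 other peptidases 3 rose, Lgmn by 2.66 and Scpep1 by 1.04 among them, and 3 fell. Of 4 tested inhibitors 3 rose, Cst3 by 1.45 and Cstb by 0.96 among them, and Serpinb1a fell by 0.81. Tfec rose by 4.71, while Tfeb (-1.42), Mitf (-2.60) and Tfe3 (-0.78) fell. Among 3 other cathepsin genes that passed the filter, Ctsk, the protease of osteoclasts (-4.76), and Ctsw (-2.58) fell, and Ctso rose by 2.42.

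**Figure D3:**
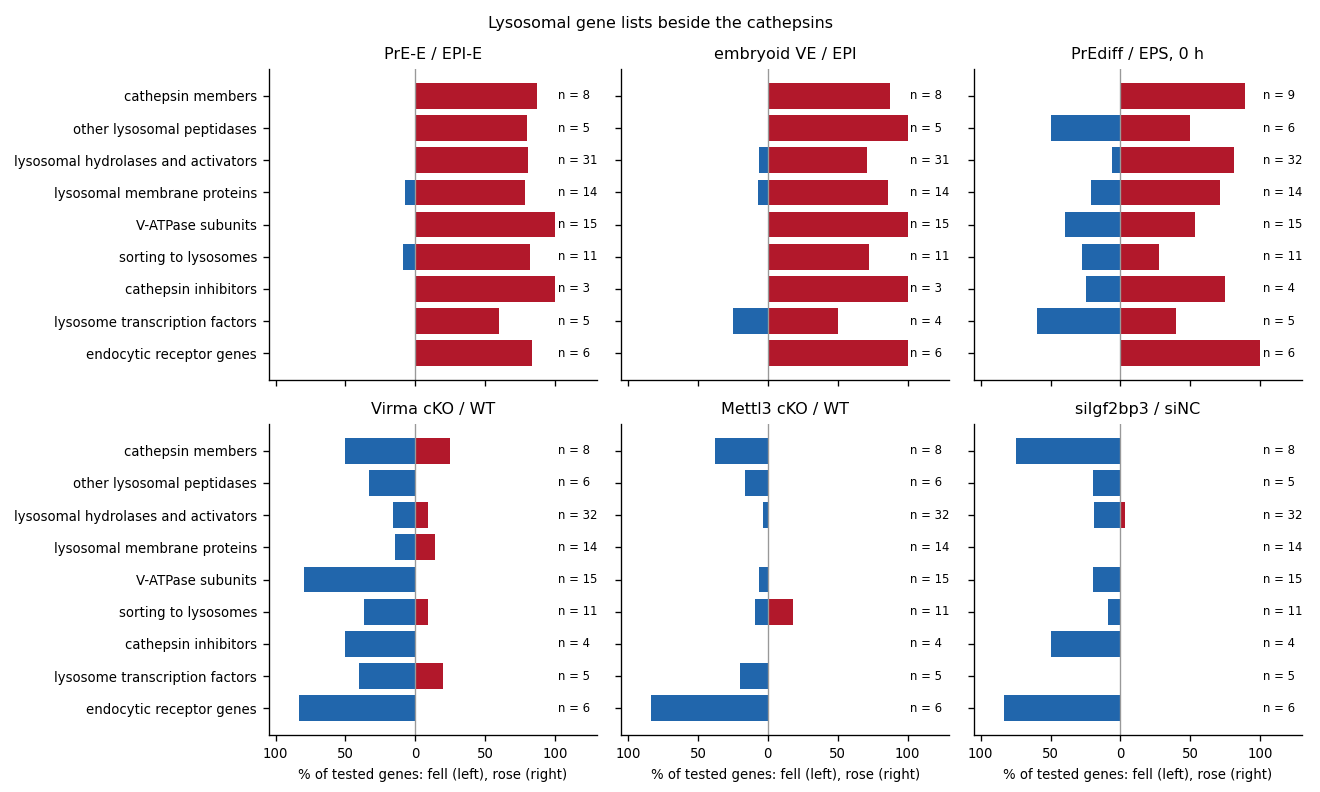
Share of tested genes that rose (red, to the right) or fell (blue, to the left) in each list of lysosomal genes, in percent of the tested genes whose number stands beside each bar, in 6 comparisons. In PrE-E and embryoid VE all 15 V-ATPase subunits rose, and in the Virma cKO libraries 12 of 15 fell, against 3 of 15, with 1 higher, when scaled to ribosomal protein genes.

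The comparisons of libraries labelled cKO or siIgf2bp3 with their controls ask how message levels of PrE-induced cells differ when a gene of the m6A machinery is targeted. Of the 3 targets only Virma was lower in the counts of its own comparison. In Virma cKO, Igf2bp3 was lower as well (-1.26 ± 0.13, adjusted p = 1.60e-09), while Mettl3 did not pass (-0.12 ± 0.28, adjusted p = 0.794). In Virma cKO, 6 of 8 tested members were called, 4 lower and 2 higher, where 33.2% of 13113 genes were called. Ctsc stood at 77.1 and 67.2 CPM in WT and at 19.2 and 16.01 in cKO, 4.10-fold lower (-2.03 ± 0.17, adjusted p = 6.44e-12). Ctsl stood at 331 and 321 in WT and 156 and 159 in cKO, 2.07-fold lower (-1.05 ± 0.08, adjusted p = 3.94e-13). The groups were well apart for both, and both stayed lower with library totals (-1.86 and -0.87) and with ribosomal protein scaling (-1.63 and -0.65), which moved the median of all genes from 0.02 to 0.20 and 0.43.

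The other members that passed moved less. Ctsa stood at 47.9 and 67.3 in WT against 41.1 and 39.1 (-0.52 ± 0.16, adjusted p = 0.00975), and Ctsz at 53.5 and 65.2 against 45.8 and 38.6 (-0.49 ± 0.15, adjusted p = 0.0106). With library totals neither passed (Ctsa -0.35, adjusted p = 0.0827, and Ctsz -0.31, adjusted p = 0.105), nor with ribosomal protein scaling (-0.12 and -0.09). Ctsd stood at 41.0 and 26.1 against 56.7 and 42.2 (0.57 ± 0.18, adjusted p = 0.0167), and Ctsb at 111 and 117 against 154 and 125 (0.29 ± 0.10, adjusted p = 0.0245). The Ctsd libraries lay close, with the lower cKO value just above the higher WT value. With DESeq2 neither Ctsd (adjusted p = 0.0626) nor Ctsb (adjusted p = 0.0720) passed. Without Virma WT replicate 2, Ctsa (-0.26), Ctsz (-0.35) and Ctsd (0.27) did not pass. Without cKO replicate 1, Ctsb (0.13) and Ctsd (0.33) did not pass, without WT replicate 1 Ctsb (0.25) did not, and without cKO replicate 2 Ctsz (-0.38) did not.

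Ctsh stood at 2.61 and 4.70 CPM against 3.27 and 1.26 (-0.69 ± 0.68, adjusted p = 0.476) and Ctsf at 0.401 and 0.697 against 3.43 and 1.18 (2.04 ± 1.04, adjusted p = 0.136). Both rest on few counts, and Ctsh overlapped. Ctss had 16 and 5 counts in WT and 2 and 1 in cKO and was not tested. PrE markers fell from 0.565% to 0.583% of counts in WT to 0.0716% to 0.0723% in cKO, with 9 of 9 lower, and feeder fibroblast markers rose from 0.0889% to 0.0892% to 0.244% to 0.254%, with 12 of 12 higher. The part of either shift in the cathepsin values was not tested.

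Of 15 V-ATPase subunits 12 fell in Virma cKO (Atp6v1a -1.18, Atp6v0a1 -1.11), but only 9 fell and 1 rose with library totals, and 3 fell and 1 rose with ribosomal protein scaling. Of 6 endocytic receptor genes 5 fell (Cubn -4.75, Lrp2 -4.54 and Dab2 -4.09) under each of these scalings. Dab2 is also a PrE marker, so this fall and that of the PrE markers are not separate results. Lgmn fell by 2.31. Neu1 (-1.90) and Hexa (-0.89) were among 5 hydrolases of 32 that fell, while 3 rose. With ribosomal protein scaling 4 hydrolases fell and 8 rose. Cst3 (-0.75), Tfec (-4.97) and Tfeb (-1.50) fell.

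In the libraries labelled Mettl3 cKO, 3 of 8 tested members were lower, where 1.44% of 13115 genes were lower and 3.95% were called in either direction. Ctsc stood at 104 and 117 CPM in WT and 86.9 and 83.7 in cKO (-0.36 ± 0.08, adjusted p = 0.00699). Ctsz stood at 127 and 124 against 97.4 and 107 (-0.31 ± 0.08, adjusted p = 0.0177), and Ctsl at 907 and 910 against 777 and 794 (-0.21 ± 0.05, adjusted p = 0.0193). The groups did not overlap for any of the 3, but the differences were small, and some calls were lost when 1 library was left out. Ctsl did not pass without any 1 of the 4 libraries (adjusted p from 0.0754 to 0.206), Ctsz not without WT replicate 1 or cKO replicate 1 (-0.29 and -0.24), and Ctsc not without WT replicate 2 (-0.28, adjusted p = 0.123). With DESeq2 Ctsz had an adjusted p of 0.0540.

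The other 5 tested members did not pass in this comparison. Ctsa stood at 202 and 200 CPM against 172 and 180 (-0.19 ± 0.07, adjusted p = 0.110) and Ctsb at 318 and 299 against 338 and 336 (0.12 ± 0.06, adjusted p = 0.345). Ctsd stood at 170 and 159 against 175 and 185 (0.13 ± 0.07, adjusted p = 0.427). Ctsf stood at 5.29 and 6.85 against 8.74 and 9.22 (0.57 ± 0.22, adjusted p = 0.176), and Ctsh at 7.35 and 6.65 against 5.30 and 6.30 (-0.28 ± 0.23, adjusted p = 0.664). Of the lists, 5 of 6 endocytic receptor genes fell (Lrp2 -0.72, Cubn -0.57), as did Lgmn (-0.50), Neu1 (-0.52), Atp6v0a1 (-0.28) and Tfec (-0.60), while Ctsk rose by 0.74. PrE markers went from 0.882% to 0.899% of counts to 0.642% to 0.667% (8 of 9 fell) and feeder markers from 0.228% to 0.244% to 0.333% to 0.349% (11 of 12 rose, 7 of 12 with ribosomal protein scaling). Their part in the cathepsin values was not tested.

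In the libraries labelled siIgf2bp3, 6 of 8 tested members were lower than in siNC, where 4.52% of 12918 genes were lower and 7.32% were called in either direction. Ctsl stood at 729 and 841 CPM in siNC and 474 and 492 in siIgf2bp3, 1.62-fold lower (-0.70 ± 0.10, adjusted p = 0.00351). Ctsz stood at 154 and 139 against 95.9 and 94.9 (-0.62 ± 0.10, adjusted p = 0.00783), and Ctsa at 237 and 216 against 157 and 167 (-0.48 ± 0.10, adjusted p = 0.0211). Ctsc stood at 67.9 and 67.3 against 45.9 and 47.7 (-0.53 ± 0.12, adjusted p = 0.0259). No library of one group reached the other for these 4 members.

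Ctsh stood at 11.2 and 9.82 CPM against 5.63 and 5.65 (-0.90 ± 0.23, adjusted p = 0.0427) and Ctsb at 243 and 283 against 191 and 205 (-0.41 ± 0.11, adjusted p = 0.0458). These were also apart, and Ctsb did not pass with ribosomal protein scaling (-0.40, adjusted p = 0.0626). Ctsd stood at 133 and 144 against 132 and 132 (-0.07 ± 0.10, adjusted p = 0.681), and Ctsf at 3.73 and 3.88 against 3.18 and 2.42 (-0.44 ± 0.34, adjusted p = 0.437). Ctss had 5 and 0 counts in siNC and 7 and 0 in siIgf2bp3. The calls rested on both siIgf2bp3 libraries: without siIgf2bp3 replicate 1 edgeR called 0 of 8 members (5 at an unadjusted p under 0.05) and 242 genes in all, and without replicate 2 only Ctsl (6 unadjusted) and 315 genes. Without either siNC library the 6 members passed, with 2424 and 4936 genes called. The sizes moved little, with Ctsl at -0.69 without siIgf2bp3 replicate 1. The siNC libraries differed more from each other (a chi-square of 9.23 per degree of freedom) than the siIgf2bp3 libraries (1.99). The part of this spread in the calls was not tested.

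Of the lists, 5 of 6 endocytic receptor genes fell (Amn -1.90, Cubn -1.12), Lgmn fell by 0.95, 3 of 15 V-ATPase subunits fell (Atp6v0a1 -0.97), and of 32 hydrolases 6 fell (Arsa, -1.18) and Manba rose by 0.80. The inhibitors Cst3 (-0.99) and Cstb (-0.60) fell. PrE markers went from 1.05% to 1.07% of counts to 0.417% to 0.423%, with 9 of 9 lower, and feeder markers lay at 0.0605% to 0.0746% and 0.0688% to 0.0701%. The part of the PrE shift was not tested.

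The 3 responses were compared directly in a fit on their 12 libraries, in which each response was taken against its own control and table and response coincide. Between Virma and Mettl3, 2 of 8 members differed, both lower, where 15.5% of 14231 genes were lower and 21.7% differed in either direction. Ctsc fell further in Virma cKO (-1.77 ± 0.17, adjusted p = 1.34e-07), as did Ctsl (-0.94 ± 0.11, adjusted p = 2.25e-06). Between Virma and siIgf2bp3, 4 of 8 differed, where 30.6% of genes did: Ctsc fell further in Virma cKO (-1.62 ± 0.17, adjusted p = 5.53e-07), and Ctsb (0.59 ± 0.14, adjusted p = 0.00270) and Ctsf (2.36 ± 0.73, adjusted p = 0.0174) were higher. The Ctsl difference of -0.46 ± 0.11 (adjusted p = 0.00246) was -0.18 with library totals and turned to 0.05 with ribosomal protein scaling. The Ctsf difference did not pass without Virma WT replicate 1 (2.03), Virma cKO replicate 1 (1.40) or siIgf2bp3 replicate 2 (2.17). Between Mettl3 and siIgf2bp3 only Ctsl differed (0.48 ± 0.11, adjusted p = 0.0259), where 0.661% of genes were higher and 1.11% differed in either direction. That call was lost without any 1 of the 4 Mettl3 or 2 siIgf2bp3 libraries (adjusted p from 0.0810 to 0.228). Some members passed only without 1 library: Ctsa (-0.66) and Ctsd (0.69) in Virma minus Mettl3 and Ctsa (-0.39) and Ctsd (0.87) in Virma minus siIgf2bp3, each without Virma WT replicate 1. Without Virma cKO replicate 2, Ctsf passed in Virma minus Mettl3 (1.92) and Ctsd in Virma minus siIgf2bp3 (0.72). Without either siNC library Ctsa passed in Virma minus Mettl3 (-0.44), and without siNC replicate 1 Ctsd passed in Virma minus siIgf2bp3 (0.58) and Ctsb in Mettl3 minus siIgf2bp3 (0.64). Ctsb also passed in the latter without either Virma cKO library (0.52).

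Actinomycin D stops new transcription, so a message that decays more slowly than the others takes a growing share of the RNA that is left. No spike-in was named in the labels, and every slope below is a log2 change per hour of this share, relative to the scaled average message. The 0 h libraries also entered the comparison of PrEdiff with EPS. In EPS, 4 of 9 members had a slope above 0 that passed the test, where 18.2% of 14127 genes were higher and 36.7% were called in either direction. In PrEdiff 7 of 9 did, where 20.3% of genes were higher and 36.9% were called. With ribosomal protein scaling, which lowered the median slope of all genes from 0.06 to -0.17 in EPS and from 0.02 to -0.36 in PrEdiff, 1 member was called in each state: Ctss, higher, in EPS, and Ctsc, lower, in PrEdiff.

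A change of scale moves the slopes of all genes nearly alike, so it leaves their order nearly fixed. The positions under each scaling are therefore not separate tests. All 9 slopes lay above the median of all genes in both states, under TMM, RLE, library totals, ribosomal protein scaling and DESeq2, and without the 3 h libraries. In EPS they lay at the 52.9th to 99.9th percentile of all genes, with a median at the 89.1st, and under ribosomal protein scaling at the 52.9th to 99.9th with a median at the 86.8th. The highest of these was Ctss, and without the EPS 3 h libraries the members lay at the 61.3rd to 94.0th percentile, with a median at the 85.4th. In PrEdiff they lay at the 71.3rd to 96.0th percentile, with a median at the 89.2nd, and under ribosomal protein scaling at the 71.3rd to 95.9th.

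Ctsb in PrEdiff stood at 384 and 382 CPM at 0 h, 490 and 483 at 1 h, 607 and 623 at 2 h, and 702 and 695 at 3 h. The replicates stayed close while the level climbed at each time, with a slope of 0.29 ± 0.04 (adjusted p = 7.07e-05) that became -0.08 with ribosomal protein scaling. Ctsl in PrEdiff stood at 560 and 571, then 695 and 695, 864 and 853, and 940 and 937 (0.25 ± 0.05, adjusted p = 0.00122, and -0.13 with ribosomal protein scaling). Ctsd (0.31 ± 0.09, adjusted p = 0.0122), Ctsz (0.31 ± 0.09, adjusted p = 0.0199), Ctsa (0.25 ± 0.05, adjusted p = 0.000970) and Ctsf (0.20 ± 0.06, adjusted p = 0.0237) were also called in PrEdiff. Their slopes were -0.07, -0.07, -0.13 and -0.18 with ribosomal protein scaling. Ctsd and Ctsz did not pass without either PrEdiff 0 h library (adjusted p from 0.0617 to 0.0997), and Ctsf not without either PrEdiff 0 h library or PrEdiff 3 h replicate 2. Ctsc had the smallest slope, 0.13 ± 0.03 (adjusted p = 0.00255), with levels of 95.1 and 99.0 at 0 h and 126 and 127 at 3 h. It turned to -0.01 with library totals and -0.25 with ribosomal protein scaling. Ctsh (0.22 ± 0.09, adjusted p = 0.0652) and Ctss (0.33 ± 0.18, adjusted p = 0.155) did not pass in PrEdiff, but Ctsh passed in the shared fit without EPS 0 h replicate 2 or EPS 1 h replicate 1 (0.23 in each).

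In EPS the course bent at 3 h for several members. Ctsd stood at 112 and 113 CPM at 0 h, 197 and 196 at 1 h, 244 and 251 at 2 h, and 174 and 174 at 3 h. It thus reached its highest level at 2 h and was lower in both 3 h libraries. Ctsz did the same, at 68.2 and 74.6, 124 and 125, 151 and 143, and 97.4 and 98.7. Ctsl stood at 341 and 338, 493 and 481, 605 and 592, and 529 and 529. Ctsb (175 and 179 at 0 h, 307 and 304 at 2 h, 293 and 297 at 3 h) changed less between the last times.

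Over all times in EPS, Ctsb (0.25 ± 0.04, adjusted p = 0.000227), Ctsl (0.22 ± 0.05, adjusted p = 0.00284) and Ctsa (0.20 ± 0.05, adjusted p = 0.00360) were called. With ribosomal protein scaling the slopes were 0.02 for Ctsb, -0.01 for Ctsl and -0.03 for Ctsa. Ctsd (0.23 ± 0.09, adjusted p = 0.0676), Ctsz (0.17 ± 0.10, adjusted p = 0.203), Ctsf (0.16 ± 0.07, adjusted p = 0.0703), Ctsh (0.28 ± 0.11, adjusted p = 0.0546) and Ctsc (0.07 ± 0.03, adjusted p = 0.0690) were not. Without the EPS 3 h libraries 7 members were called, among 8748 genes called in all, against 5180 with them. The gain in calls was thus not particular to the members. Ctsd was then at 0.57, Ctsz at 0.52 and Ctsf at 0.34. Leaving out EPS 3 h replicate 1 or 2 alone brought Ctsd to 0.32 (adjusted p = 0.0222 and 0.0223). Ctsf also passed without EPS 3 h replicate 1 (0.23), and Ctsh without EPS 3 h replicate 2 (0.36) or EPS 1 h replicate 1 (0.35).

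Ctss differed from the others in EPS. It had 13 and 4 counts at 0 h, 21 and 14 at 1 h, 12 and 14 at 2 h, and 84 and 64 at 3 h. Only the 3 h libraries stood out, and the slope of 1.04 ± 0.16 (adjusted p = 0.000118) was 0.46 without them (adjusted p = 0.137). The 12 markers of macrophages, a cell type rich in Ctss, took 0.00343% to 0.00373% of counts at EPS 3 h and 0.000698% to 0.00117% at the earlier times. Lyz2 had 46 and 48 counts at 0 h and 594 and 664 at 3 h. Adgre1 had 3 and 5 counts at 0 h and 28 and 29 at 3 h, while Aif1 and Cx3cr1 were at 0 and Ptprc had 2 and 3 counts at 3 h. Lyz2 made up most of the summed share at 3 h. Csf1r had 16 and 18 counts at 0 h and 7 and 14 at 3 h, and Fcer1g 5 and 7 at 0 h and 2 and 6 at 3 h, so these 2 markers were not higher. Of 8 macrophage markers tested for a slope in EPS, 4 rose and none fell. The part of such cells in the Ctss value was not tested.

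**Figure D4:**
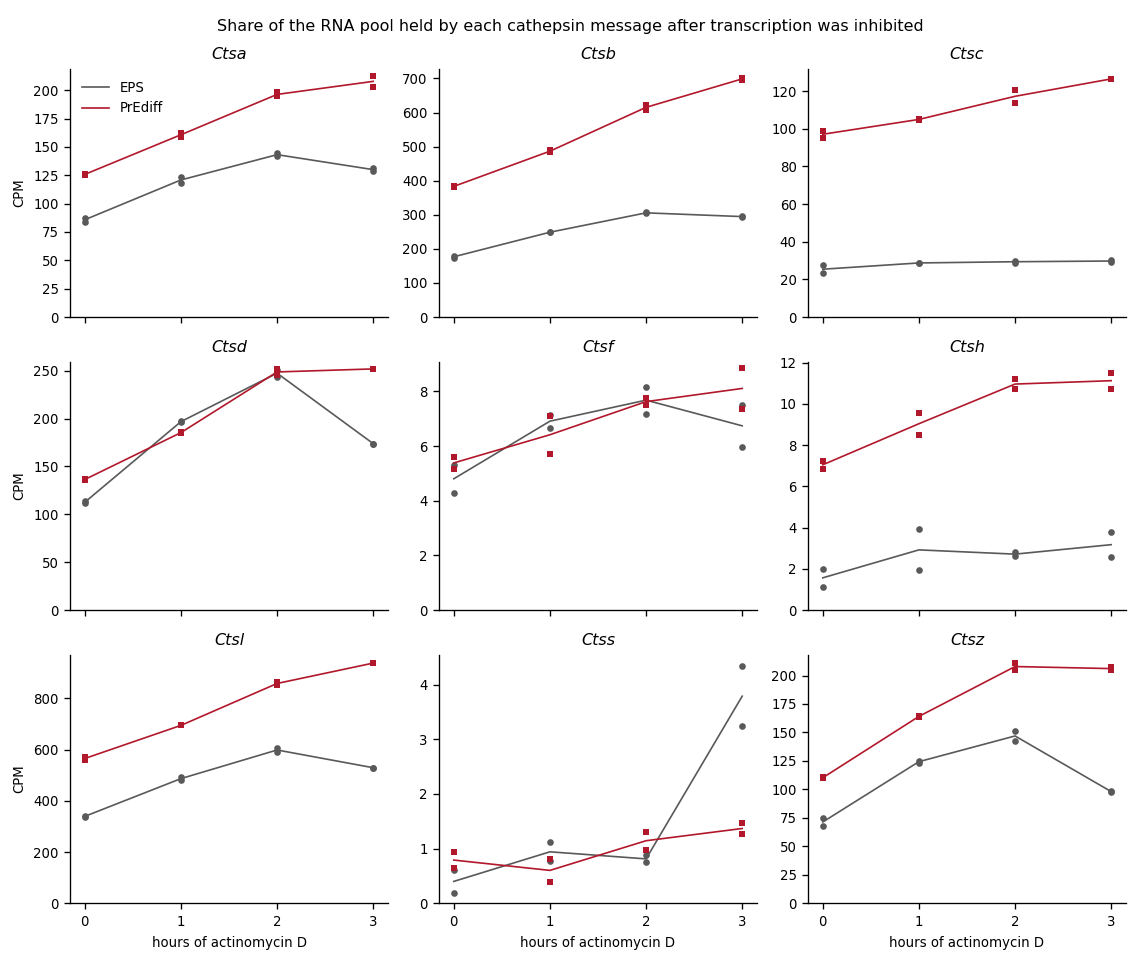
CPM of each member (vertical axis, from 0) against hours of actinomycin D in EPS (grey circles) and PrEdiff (red squares); points are libraries and lines join the means of 2. Ctsd, Ctsl and Ctsz in EPS are lower at 3 h than at 2 h, and Ctss is high only in the 2 EPS libraries at 3 h.

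The slopes of the 2 states were compared in the same fit. With edgeR 0 of 9 members differed (1 at an unadjusted p under 0.05), where 1.27% of genes differed, and with DESeq2 0 of 9 differed (1 unadjusted). For Ctsb the difference, PrEdiff minus EPS, was 0.04 ± 0.06, for Ctsl 0.03 ± 0.07 and for Ctsc 0.06 ± 0.04, and that of Ctss was -0.71 ± 0.25 (adjusted p = 0.223). This does not show that the messages decayed alike, since the sign turned for 6 members without the EPS 3 h libraries. There 2 members differed, Ctsd (-0.26, adjusted p = 0.0222) and Ctsl (-0.16, adjusted p = 0.0196), among 4140 genes called, against 180 with all libraries. The gain in calls was thus not particular to the members. Without the 3 h libraries of both states Ctsb (-0.13, adjusted p = 0.0427), Ctsd (-0.21, adjusted p = 0.0382) and Ctsl (-0.19, adjusted p = 0.0163) differed, among 926 genes called.

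Most other lysosomal lists also had median slopes above that of all genes. In PrEdiff 25 of 32 hydrolases (Gm2a 0.31, Psap 0.29), 12 of 15 V-ATPase subunits (Atp6ap1 0.19), 8 of 14 membrane proteins (Lamp1 0.26) and all 6 other peptidases (Scpep1 0.25) had slopes above 0. With ribosomal protein scaling none of these passed above 0, and 13 hydrolases, 5 V-ATPase subunits and 7 membrane proteins fell, while the list medians (-0.20 for hydrolases, -0.19 for V-ATPase) stayed above the -0.36 of all genes. The 5 transcription factors had lower medians, -0.16 in EPS, where Tfeb fell (-0.40), and -0.24 in PrEdiff, where Tfec fell (-0.46).

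Likeness of pattern was described by Pearson's r over the means of 18 groups in 6 tables, after subtracting each table's mean, among 8933 genes (8934 for Ctsf and Ctss). It is given with no test, and the groups share tables, cells and depth. The 7 members higher in PrE-E than EPI-E and in embryoid VE than embryoid EPI had r of 0.791 (Ctsc with Ctsd) to 0.995 (Ctsa with Ctsz) among themselves. Ctsf had r of -0.52 to -0.02 with the others and Ctss -0.07 to -0.001. The genes most like each member were Tmem150a for Ctsa (0.998), the acid glucosidase Gaa for Ctsb (0.993), Neu1 for Ctsc (0.996), S100a11 for Ctsd (0.981), Plbd1 for Ctsh (0.993), Hexa for Ctsl (0.997) and Mtarc2 for Ctsz (0.997). Next came Ctsz for Ctsa, Ctsa for Ctsl and Ctsa for Ctsz. Ctsf was most like Chchd6 (0.926) and Ctss most like Smc1a (0.904).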

How the data were processed

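RNA-seq was deposited as 7 tables of raw counts per gene. Per the labels' protocols, TRIzol was used to extract RNA and SMARTer Stranded or VAHTS kits to make libraries, without saying which kit made which. Per the submitters' processing notes, the authors' tools included STAR 2.7.11b and Subread, with FastQC 0.12.1 and Trim Galore before them and DESeq2 after, on mm39; annotation and strand setting are not given in the sources used here. The Virma table's columns carry the word "input".

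All 46 columns matched a sample title (0 were left out). Counts as deposited were fitted across all genes with edgeR 4.0.16 in R 4.3.3 (TMM, filterByExpr with a minimum count of 10 and total of 15, robust quasi-likelihood, prior count 0.125, Benjamini-Hochberg, threshold 0.05), each comparison on its own table. The actinomycin D table was fitted with a mean for each group, or an intercept and slope per hour for each state. Direct comparisons of responses joined tables on symbols. SE is the log2 change divided by the root of its F. Of the EPSC counts, 19 repeated symbols were left out. CPM per kb used 1 GENCODE M21 transcript per gene (GRCm38). Total counts ran from 6854433 to 22280769, and precision is limited by counting for members under about 10 counts. A bound against 0 counts used 3 counts per library, which covers counting error only. The fits were tested on simulated data.

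The members and lists were chosen with earlier results of these data known. The text names all members, the targeted genes, from each list up to 4 genes of lowest adjusted p (not all printed), and the 3 genes most like each member (not all printed) among genes with a mean of at least 10 CPM. Alternatives were RLE, library totals, scaling to 83 ribosomal protein genes, DESeq2 1.42.0, no filter, a filter of 1 CPM, a replicate block, leaving out each library and leaving out 3 h libraries. The crossed pairing was added after seeing the data. Replicate numbers come from the sample titles and did not pair the samples.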

Additional observations from a re-analysis of the deposited data

Results flagged for a closer look

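Among 16 sets of 6 embryoid libraries (a member in a layer), 1 held a library that stood apart: Ctsc in embryoid EPI replicate 2, at 134.9 CPM, with the nearest other library at 94.2. Chance gives about 1 such set in 20.

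The embryoid VE/EPI contrast differed from the PrE-E/EPI-E contrast, by a test of the difference (edgeR), for 3 members with counts in all libraries: Ctsc by -1.42 (adjusted p = 0.00299), Ctsd by -0.73 (adjusted p = 0.000584) and Ctsl by -0.70 (adjusted p = 0.00145). For Ctsh the fit also gave a difference, -7.21, but it rests on EPI-E libraries without a count and depends on the prior count, so neither its size nor its p is used. The Ctsc difference was -1.08 without EPI-E replicate 1 (adjusted p = 0.0938).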

How the results depend on the processing

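The 7 members called in each of the sorted and embryoid comparisons stayed at 7 under every alternative run. Of 2019 values of single members under an alternative, 1839 kept direction and side of the threshold, 64 lost the call, 51 gained it and 65 turned. The cause of the changes below was not tested.

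For Mettl3 cKO 1 member was called with the replicate block and 6 with a crossed replicate block, which called 1421 genes. Ribosomal protein scaling called 289 genes and DESeq2 247. For siIgf2bp3 1699 genes were called with no filter and 1467 with the replicate block. Same-numbered libraries did not deviate together (r from -0.23 to 0.04), and in the embryoids 1 of 6 matched its own number best; the block changed the calls of Ctsl and Ctsz for Mettl3 cKO, and elsewhere those of Ctsh (EPS slope), Ctsd (Virma minus siIgf2bp3) and Ctsl (Mettl3 minus siIgf2bp3). In Virma cKO genes called higher and lower were 1984 and 2364, 3001 and 1491 with library totals, and 4867 and 750 with ribosomal protein scaling.

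For EPS slopes 1 member was called with ribosomal protein scaling, 8 without the 3 h libraries (9442 genes) and 7 without the EPS 3 h libraries (8748 genes). Ribosomal protein scaling turned Ctsa to -0.030, Ctsc to -0.16, Ctsd to -0.017, Ctsf to -0.071, Ctsl to -0.014 and Ctsz to -0.075, and library totals Ctsc to -0.038. For PrEdiff slopes 3 members were called with library totals and 1 with ribosomal protein scaling (9177 genes; 8381 without 3 h). Ribosomal protein scaling turned Ctsa to -0.13, Ctsb to -0.085, Ctsc to -0.25, Ctsd to -0.071, Ctsf to -0.18, Ctsh to -0.15, Ctsl to -0.13, Ctss to -0.046 and Ctsz to -0.074, and library totals Ctsc to -0.015.

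For the slope difference 3 members were called without 3 h (926 genes) and 2 without EPS 3 h (4140 genes), with 2 genes under ribosomal protein scaling and 528 with DESeq2. Ribosomal protein scaling turned Ctsa (-0.10), Ctsb (-0.10), Ctsc (-0.088), Ctsd (-0.055), Ctsf (-0.10) and Ctsl (-0.12; -0.0082 with library totals). Without 3 h Ctsa (-0.13), Ctsb (-0.13), Ctsc (-0.048), Ctsd (-0.21), Ctsf (-0.16), Ctsl (-0.19) and Ctsz (-0.14) turned, and without EPS 3 h Ctsa (-0.12), Ctsb (-0.10), Ctsd (-0.26), Ctsf (-0.14), Ctsl (-0.16) and Ctsz (-0.21).

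For Virma minus Mettl3 5 members were called with ribosomal protein scaling, and Ctsa (0.11), Ctsh (0.022) and Ctsz (0.26) turned. For Virma minus siIgf2bp3 Ctsa turned with library totals (0.12) and ribosomal protein scaling (0.34), Ctsl with the latter (0.045) and Ctsz with no filter (-0.0027). For Mettl3 minus siIgf2bp3 0 members were called by edgeR with ribosomal protein scaling or the block (2 unadjusted in each; 95 and 40 genes), and 2 with DESeq2 or no filter (419 and 422 genes).

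Leaving out each library gave these ranges of members called: Virma cKO 3 to 5, Mettl3 cKO 1 to 2, siIgf2bp3 0 to 6 (242 to 4936 genes), PrEdiff slope 4 to 8 (3150 to 5466 genes), Virma minus Mettl3 2 to 4 (1946 to 3525 genes) and Mettl3 minus siIgf2bp3 0 to 2 (37 to 985 genes). The slope difference ran from 89 to 206 genes, with Ctsa from -0.0016 to 0.086, Ctsd -0.0096 to 0.17, Ctsf -0.033 to 0.12, Ctsh -0.14 to 0.071 and Ctsl -0.021 to 0.068. Ctsb ran from -0.092 to 0.20 in Virma minus Mettl3. In Virma minus siIgf2bp3 Ctsa ran from -0.39 to 0.095, Ctsh -0.76 to 0.60 and Ctsz -0.13 to 0.15. In the embryoid minus sorted contrast Ctsa ran from -0.34 to 0.051, Ctsb -0.55 to 0.077 and Ctsz -0.60 to 0.22. A lone remaining library was assumed to vary like the others. Depth limits Ctss, Ctsf and Ctsh most, each with under 100 counts in many libraries.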
